A study of Gallus gallus with 4 samples.

Results

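Posterior and anterior pieces of the bisected chick optic tectum at Hamburger-Hamilton stage 37 (HH37) were compared on 1 of the 4 two-colour microarrays of the study, chosen by its label as the array of the anteroposterior axis at that stage. Its Cy5 channel held RNA of the posterior pieces and its Cy3 channel RNA of the anterior pieces. Each channel was a pool of 60 such pieces from Gallus gallus embryos, incubated with no treatment named in the labels. The other 3 arrays compared posterior with anterior pieces at HH35, in the same dye order, and the mediolateral pieces at HH30 and HH35. Ratios of the mediolateral arrays are given as Cy5 over Cy3. The series' design text states that no pool was repeated and no dyes were swapped. No difference below therefore has a replicate check, no test was possible and a difference between the dyes cannot be told apart from one between the pools. A ratio of an anteroposterior array is log2 of posterior over anterior throughout, so a value below 0 means a higher signal in the anterior pool.

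The optic tectum is the dorsal midbrain structure in which retinal axons end in an ordered map. Axons of the temporal retina end anteriorly and axons of the nasal retina posteriorly, and graded Eph receptor tyrosine kinases and their membrane-bound ephrin ligands are known to guide them. The isthmic organiser at the posterior border of the midbrain, through FGF8, WNT1 and the engrailed and PAX2/5/8 factors, sets the polarity of the tectum early on. Neurons of the chick tectum are known to be born and to mature earlier anteriorly than posteriorly.

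The array was the dimmest of the study. The median foreground intensity of its 42034 gene probes was 99 in the posterior channel and 107 in the anterior channel, against 135 to 194 in Cy5 and 130 to 229 in Cy3 on the other arrays. The signal-to-noise score of a spot is its mean minus the background mean over the background SD, and a probe counted as measured where this exceeded 3 in both channels, unless the scanner software had not found its spot. Of the gene probes, 36.4% passed in the posterior channel and 60.4% in the anterior channel, and 15301 (36.4%) were measured. The posterior channel set that limit: 11 probes passed in that channel only and 10087 in the anterior channel only, and the median background SD was 32 in the posterior channel and 11 in the anterior channel. The measured probes gave 14900 features, namely 4709 genes with a symbol, each by its brightest probe, and 10191 probes without one. Repeated control spots had an SD of the log2 ratio of 0.09 to 0.12, which covers spots within 1 array only. Of 10 tectal markers (PAX7, PAX3, OTX2, EN1, MEIS2, LHX1, LHX9, TFAP2D, GATA3 and POU4F1), 7 had a probe, and 6 of these were measured in both pools, while PAX3 passed in the anterior channel only. HOXA2, a defining gene of the hindbrain, was not above the limit in either channel, HOXB1 passed in the anterior channel only, and EMX2, a forebrain homeobox gene, was measured in both.

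Among the measured features, the posterior pool was ahead by 2-fold or more for 20 (0.134%) and the anterior pool for 446 (2.99%). At 1.5-fold the counts were 328 (2.2%) on the posterior side and 2164 (14.5%) on the anterior side, although 52.8% of features lay above 0 and 47.2% below it. The median ratio was 0.03, with quartiles at -0.35 and 0.26, and loess centres the ratios of an array near 0 by its construction. With probes taken as measured at a score above 3 in at least 1 channel, as many as 24469 features entered, and 25 posterior and 451 anterior ones passed 2-fold. The restriction to both channels thus lowered each count by 5, and the anterior share of all features past 2-fold was 95.7% with both channels and 94.7% with at least 1. With no filter on signal, 37263 features entered, and 26 posterior and 451 anterior ones passed 2-fold (94.5%). Anterior features past 2-fold were 1.21% of those entered with no filter, 1.84% with at least 1 channel and 2.99% with both. At 1.5-fold the unfiltered counts were 486 posterior and 2540 anterior. Counts with and without the restriction used a background offset of 50, which draws ratios of dim probes towards 0. How the restriction acts without that offset was not tested. At a score above 6 in both channels, 13 posterior and 426 anterior features remained in the count, a share of 97.0%. Features measured in the anterior channel only numbered 9887, and none was at least 2-fold higher in the posterior pool and 6 in the anterior pool by their computed ratios. Just inside the limit, where the lower score lay from 3 to 3.5, 1 posterior and 4 anterior features among 1141 passed 2-fold, and just outside it, from 2.5 to 3, 3 posterior and 2 anterior features among 1330 did.

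How large the anterior excess was depended on the scaling. Fitting the loess curve on the measured probes alone gave 23 posterior and 255 anterior features past 2-fold, an anterior share of 91.7%. Plain background subtraction gave 81 posterior and 384 anterior features (82.6%), and centring on the median of genes with a symbol gave 41 posterior and 163 anterior ones (79.9%). The authors' deposited value table, read as posterior over anterior over the same probes, gave 253 posterior and 286 anterior features, a share of 53.1%. That table runs as anterior over posterior and was turned round here, and how it was normalised is not given in the sources used here. Every one of the 446 anterior features kept a ratio below 0 in the value table, and 169 of them stayed past 2-fold there.

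**Figure D1:**
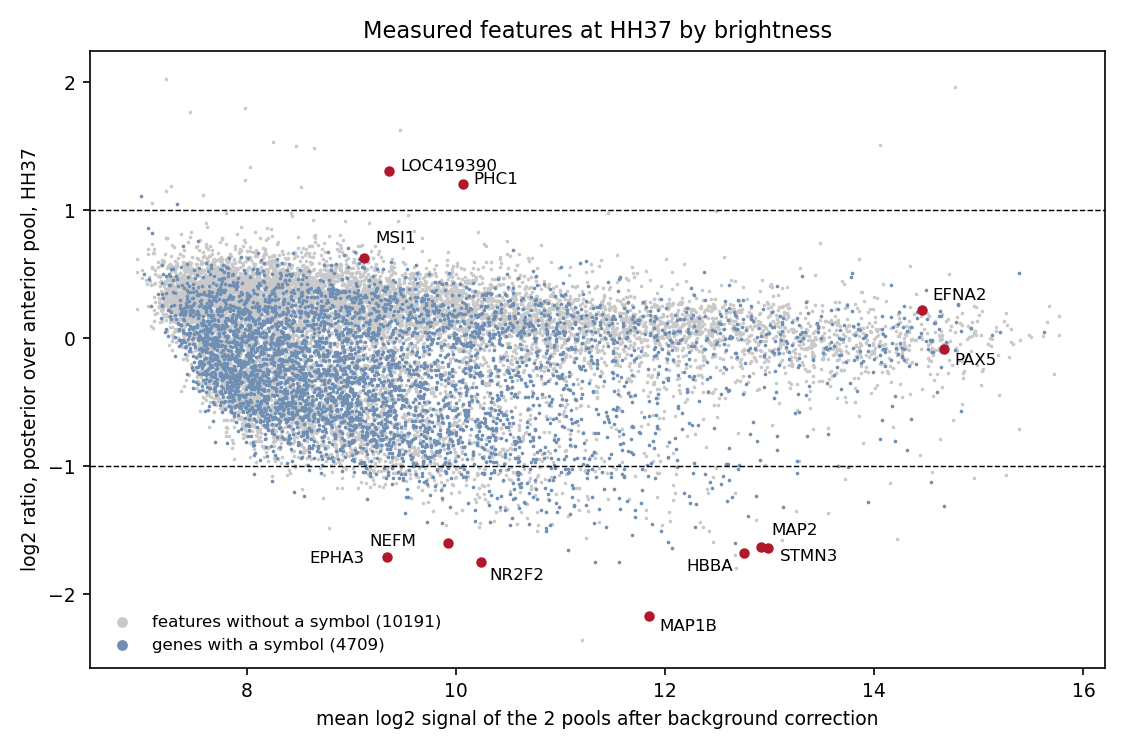
Log2 ratio of the posterior over the anterior pool at HH37 (vertical axis) against the mean log2 signal of both pools (horizontal axis) for the 14900 measured features, with dashed lines at 2-fold. Blue points are the 4709 genes with a symbol and red ones are named in the text. Above the upper line lie 20 features and below the lower line 446, mostly in the middle and upper range of brightness.

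Genes with a symbol sat lower than the other features. Their median ratio was -0.18, against 0.11 for features without a symbol, and 65% of them lay on the anterior side and 35% on the posterior side. At least 2-fold differences were found for 4 of these genes (0.0849%) on the posterior side and 211 (4.48%) on the anterior side, and at 1.5-fold for 29 (0.616%) on the posterior and 998 (21.2%) on the anterior side. The gap was present in each of 8 bins of brightness and was narrowest in the brightest bin, where the median was -0.08 for genes with a symbol and 0.02 for the others. Counts of gene lists below are therefore read against the genes with a symbol. The share of features past 2-fold anteriorly also depended on brightness: 0% in the dimmest bin, 9.02% in bin 7 and 4.78% in the brightest. Gene lists were not matched for brightness.

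On the anterior side the largest ratio of a gene with a symbol belonged to MAP1B, which binds microtubules in growing axons, with a normalised signal of 1731 in the posterior pool and 7784 in the anterior pool (-2.17 on the log2 scale, 4.5-fold). NR2F2, the orphan nuclear receptor COUP-TFII, had 661 in the posterior pool and 2219 in the anterior pool (-1.75). SPTBN1, a spectrin of the membrane skeleton, had 1407 in the posterior pool and 4726 in the anterior pool (-1.75). EPHA3, a receptor for ephrin-A ligands, stood at 359 in the posterior pool and 1172 in the anterior pool (-1.71), dimmer than its neighbours in this order. Also among the 10 lowest were HBBA, a beta globin (-1.68), TCF4, a basic helix-loop-helix factor (-1.65), STMN3, a neuronal stathmin (-1.64), the tetraspanin TSPAN7 (-1.64) and MAP2, a microtubule-associated protein of dendrites (-1.63). Apart from MAP1B, these genes lay between -1.75 and -1.63, a range close to the largest SD of repeated control spots, so their order is not resolved. In bulk pools, fewer cells of a type and less RNA per cell cannot be told apart.

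Where a gene had a second measured probe, it could be read as a separate measurement on the same array. This held for 339 genes, whose 2 brightest probes differed by a median of 0.29 and lay on the same side of 0 in 67.8% of cases. The 2 probes correlated with Pearson's r of 0.51. Shares on 1 side are to be read against the 65% of all genes with a symbol that lay below 0. Of the 27 genes at least 2-fold higher anteriorly by the brightest probe, 26 were below 0 by the second probe, 20 were at least 1.5-fold and 10 at least 2-fold, with a median of -0.85. SPTBN1 had a second probe at -1.02.

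The posterior side held few genes and mostly dim ones. LOC419390, a gene described as related to enhancer of split, the family of Notch-responsive repressors, had 1037 in the posterior pool and 418 in the anterior pool (1.31, 2.48-fold), and its ratio was 1.15 at HH35. PHC1, a Polycomb subunit, followed at 1629 in the posterior pool and 708 in the anterior pool (1.20), then PDZK1P1 (1.11) and SNRNP40, a component of the U5 particle of the spliceosome (1.05). With the median instead of the mean of the spot's pixels, PHC1 turned to -0.43 and SNRNP40 to -0.12, and PDZK1P1 stood at 0.05, while LOC419390 kept 1.31. The PHC1 spot had a pixel mean of 1444 and a pixel median of 124 in the posterior channel. PFDN1, a subunit of the chaperone prefoldin (0.87), DYDC2 (0.82), the ribosomal protein gene RPL3L (0.76), the keratin KRT75 (0.72), the actin-bundling protein plastin PLS1 (0.70) and the zinc finger gene ZNF318 (0.69) completed the 10 highest. ZNF318 had a second probe at 0.10.

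Of the 20 features at least 2-fold higher posteriorly, 16 had no symbol. Taking pixel medians, 9 of the 20 stayed past 2-fold and 2 turned to the anterior side, against 419 of the 446 anterior features that stayed and none that turned. The brightest of the posterior features were probes for small nuclear RNAs that do not code for protein. The probe for the U4a RNA of the spliceosome had a normalised signal of 55065 in the posterior pool and 14144 in the anterior pool (1.96), with a posterior channel partly saturated at a pixel median of 65535, and 7SK, an RNA that restrains transcription elongation, had 28789 in the posterior pool and 10084 in the anterior pool (1.51). At HH35 the same probes stood at 0.18 and -0.33. An unnamed probe printed next to the U4a spot, BU234495, was also among the 20 (1.77). U5A RNA stood on the other side, at -0.26, and the U21 small nucleolar RNA was at 0.37. Among the unnamed cDNA probes that stayed past 2-fold by pixel median were CR407423 (1.63 by pixel mean, 1.66 by pixel median), CR523196 (1.5 and 1.54) and BU369534 (1.34 and 1.36). These probes are named after their values were seen. Probe BU290678 had the lowest ratio of all measured features (-2.36, with 1044 in the posterior pool and 5346 in the anterior pool), and no gene is named for it in the files.

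Genes of the neuronal cytoskeleton formed the list furthest to the anterior side. All 20 measured members lay below 0, 12 stood 2-fold or more higher in the anterior pool and none in the posterior pool, and their median was -1.23, against -0.18 over all genes with a symbol. Of the latter, 65% lay below 0, and 4.48% were past 2-fold anteriorly and 0.0849% posteriorly. After MAP1B and SPTBN1, STMN3 had 4577 in the posterior pool and 14264 in the anterior pool. NEFM, the medium neurofilament subunit of mature axons, had 557 in the posterior pool and 1689 in the anterior pool (-1.60). Members nearest to 0 were MAP6 (-0.67), STMN1, the stathmin of young and dividing cells (-0.40), and MAP4, a microtubule-associated protein found widely outside neurons (-0.11). The list's median was -0.40 at HH35.

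Tubulins and the motors that move along them also lay far to the anterior side. Of 3 tubulin genes measured, TUBB2B, the neuronal beta tubulin, had 16534 in the posterior pool and 40937 in the anterior pool (-1.31), TUBB4B stood at -0.97 and TUBB6 at -0.49. Axonal motors had a median of -0.90, with 14 of 15 members below 0 and 5 past 2-fold anteriorly. The shares over all genes with a symbol were 65% and 4.48%. DCTN1, the large dynactin subunit, had 1038 in the posterior pool and 2527 in the anterior pool (-1.28). KIF5B, a kinesin heavy chain, stood at -1.21 and KIFAP3, an adaptor of kinesin-2, at -1.17, while the dynein light chain DYNLRB1 was at 0.02.

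Calcium-dependent signalling genes had a median of -0.99, with 16 of 17 members below 0, 7 past 2-fold anteriorly and none posteriorly. Among all genes with a symbol, these shares were 65%, 4.48% and 0.0849%. PPP3CA, the catalytic subunit of calcineurin, had 1354 in the posterior pool and 3500.2 in the anterior pool (-1.37), and its HH35 ratio was -1.32. The calcium sensors NCALD (-1.26) and VSNL1 (-1.25) came next. CALB1, the calcium buffer calbindin, lay at 0.10 with signals of 197 in the posterior pool and 184 in the anterior pool.

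Synaptic vesicle and SNARE genes had a median of -0.53, and 4 of 14 stood 2-fold or more higher in the anterior pool. Of all genes with a symbol, 4.48% did. SNAP25, a SNARE of the presynaptic membrane, had 2994 in the posterior pool and 8319 in the anterior pool (-1.47). SYT1, the calcium sensor of vesicle release, had 911 in the posterior pool and 2414 in the anterior pool (-1.40) and the active zone gene RIMS1 stood at -1.22. The list was not uniform: SYT4 was at -0.17 and the active zone scaffold PCLO at 0.00.

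**Figure D2:**
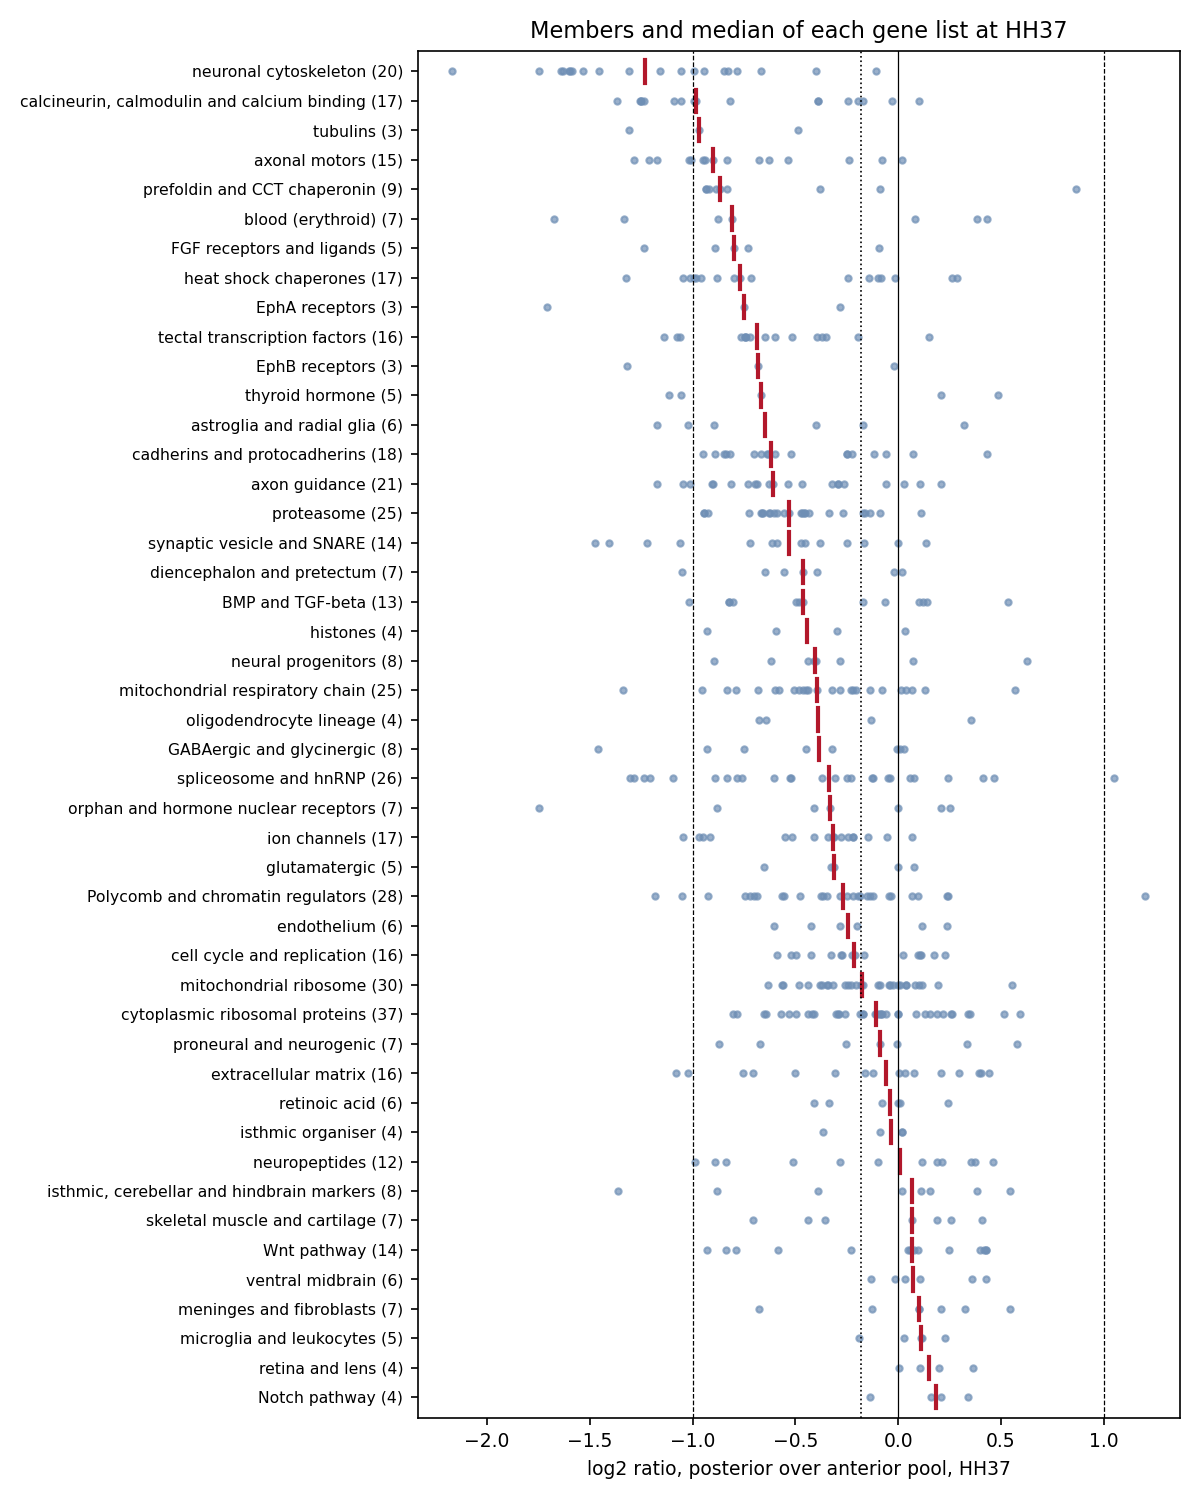
Log2 ratio of the posterior over the anterior pool at HH37 (horizontal axis) for the measured members (blue points) of the 46 gene lists with at least 3 of them, ordered by list median (red bars), with the number measured in brackets. The dotted line is the median of genes with a symbol (-0.18), solid and dashed lines mark 0 and 2-fold, and 15 lists have a median at least 1.5-fold towards the anterior pool and none towards the posterior pool.

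Most Eph receptors were higher in the anterior pool and ephrins lay near 0. Among EphA receptors, which bind mainly ephrin-A ligands, EPHA3 was followed by EPHA4 at 788 in the posterior pool and 1327 in the anterior pool (-0.75) and by EPHA5 at 4049 in the posterior pool and 4929 in the anterior pool (-0.28). Their HH35 ratios were -2.46 for EPHA3, -0.75 for EPHA4 and 0.29 for EPHA5. EPHA7 and EPHA6 passed the limit in the anterior channel only. EPHA7 was 1.70-fold higher there by a floored ratio (116 in the posterior pool, 227 in the anterior pool), and its ratio at HH35, where both channels passed, was -2.38. For EPHA6 the floored ratio was 1.66-fold (226 in the posterior pool, 376 in the anterior pool). A floored ratio sets the anterior signal against the higher of the posterior spot's own value and the lowest posterior signal among probes above the limit. Posterior spots brighter than that lowest signal could still miss the limit, as that of EPHA6 did, so a floored ratio is not a strict minimum.

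EphB receptors, partners of the transmembrane ephrin-B ligands, were led by EPHB1 at 1282 in the posterior pool and 3193 in the anterior pool (-1.32), which had stood at -0.07 at HH35. EPHB2 was at -0.68, against 0.10 at HH35, and EPHB3 at -0.02. Among the ligands, EFNA2 was among the brightest genes of the array, with 24243 in the posterior pool and 20842 in the anterior pool (0.22), against 0.42 at HH35. With the mean of both mediolateral arrays subtracted it stood at -0.18. EFNA6 had 883 in the posterior pool and 708 in the anterior pool (0.32) and EFNB1 899.6 in the posterior pool and 872 in the anterior pool (0.04). EFNA5, at 1.16 in favour of the posterior pool at HH35, passed in the anterior channel only at HH37, with 113 in the posterior pool and 107 in the anterior pool, so no ratio is given. The receptors EPHA3, EPHA4, EPHA5, EPHB1 and EPHB2 stayed below 0 under every alternative tried, with EPHA3 between -2.06 and -1.40. EPHB3, EFNA2, EFNA6 and EFNB1 each changed side under at least 1 of them.

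Other guidance genes had a median of -0.61, with 18 of 21 below 0 and 3 past 2-fold on that side. Over all genes with a symbol, the shares were 65% and 4.48%. CNTN1, an adhesion molecule of axons, had 998 in the posterior pool and 2253 in the anterior pool (-1.18). RGMA, a repulsive guidance molecule for temporal retinal axons, had 1873 in the posterior pool and 3867 in the anterior pool (-1.05), whereas at HH35 it stood at 0.28. PTPRO, a receptor phosphatase that acts on Eph receptors, was at -1.01. At the other end of the list, the plexin PLXNA1 was at 0.03 by its brightest probe and at -0.57 by its second. The attractant netrin NTN1 was at 0.10 and the neuropilin NRP1, bright in both pools, at 20727 in the posterior pool and 17935 in the anterior pool (0.21). NTN1 lay close to the limit, with 190.5 in the posterior pool and 177 in the anterior pool, and its HH35 ratio was 1.75.

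**Figure D3:**
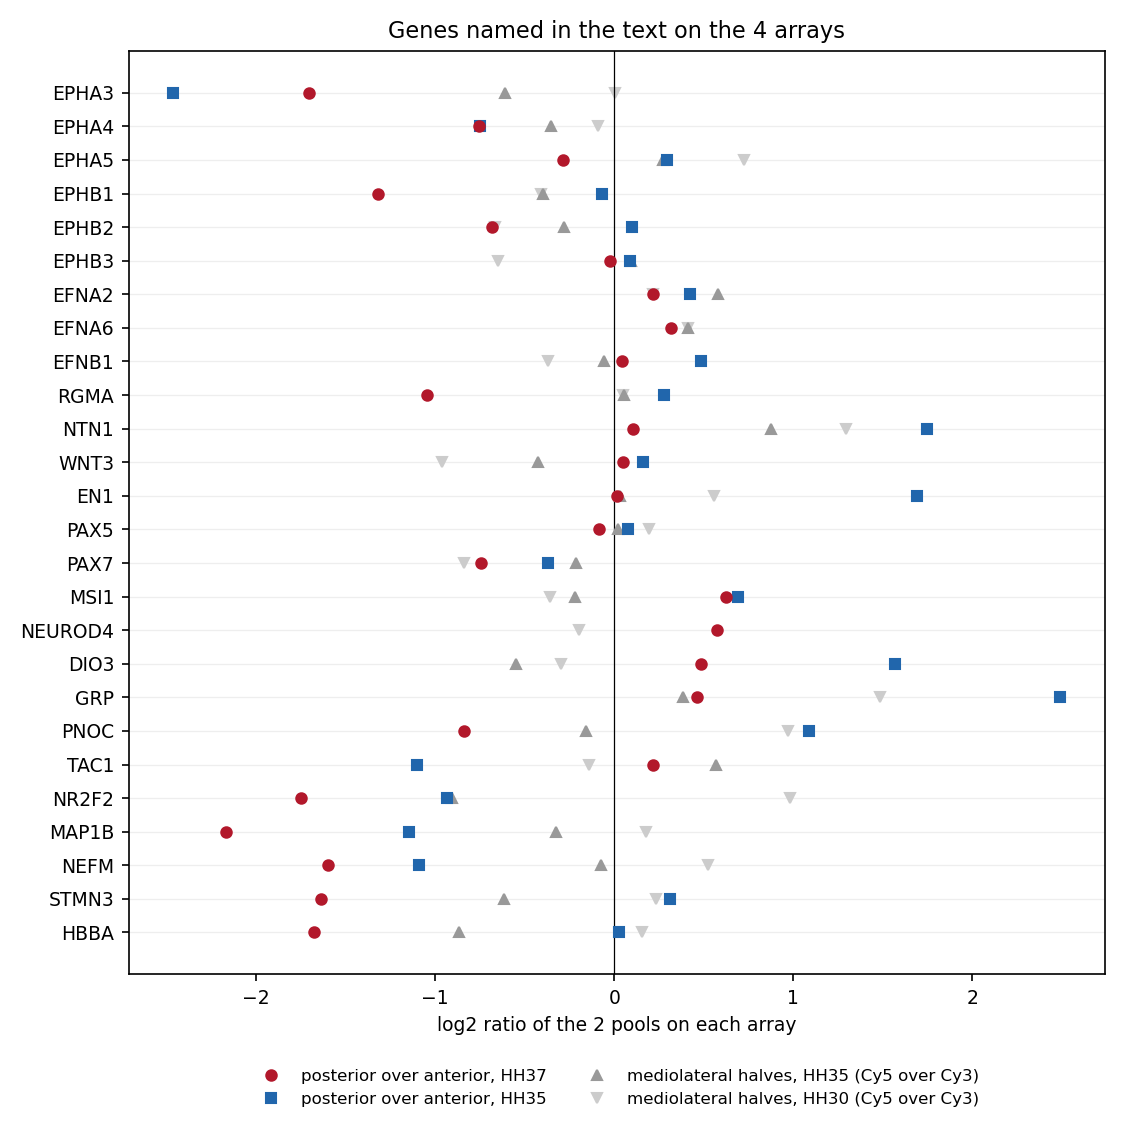
Log2 ratio of the 2 pools (horizontal axis) for genes described in the text (rows) on each of the 4 arrays. Posterior over anterior is in red at HH37 and in blue at HH35, and Cy5 over Cy3 of the mediolateral arrays at HH35 and HH30 is in grey. MAP1B lies furthest left at HH37, followed by NR2F2, EPHA3, HBBA, STMN3 and NEFM. EN1, NTN1, DIO3 and GRP lie between 0 and 0.5 at HH37 but beyond 1.5 at HH35.

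Tectal transcription factors had a median of -0.68, with 15 of 16 below 0, 3 past 2-fold anteriorly and none posteriorly. Among all genes with a symbol, the shares were 65%, 4.48% and 0.0849%. BCL11B, a zinc finger factor of postmitotic neurons, had 1047 in the posterior pool and 2309 in the anterior pool (-1.14), the AP-2 factor TFAP2B 564 in the posterior pool and 1188 in the anterior pool (-1.08) and NFIB, a nuclear factor I gene, -1.06. PAX7, a dorsal midbrain factor, had 293 in the posterior pool and 492 in the anterior pool (-0.75). LHX1, a LIM homeobox gene, stood at -0.35, against 0.73 at HH35, and TSHZ1 at 0.15. EBF3, a helix-loop-helix factor of differentiating neurons, had 351 in the posterior pool and 644 in the anterior pool (-0.87).

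The 4 organiser genes measured all lay within 1.5-fold, as did most genes with a symbol. Of those, 21.2% were past 1.5-fold anteriorly and 0.616% posteriorly. EN1, an engrailed gene that confers posterior identity, had 1581 in the posterior pool and 1561 in the anterior pool (0.02), while at HH35 its ratio was 1.69. PAX5 was bright and even, with 25166 in the posterior pool and 26725 in the anterior pool (-0.09). GBX2 was at 0.02 and the FGF-responsive factor ETV5 at -0.36. PAX2 passed in the anterior channel only, with 137 in the posterior pool and 122 in the anterior pool, against a ratio of 3.0 at HH35. FGF8 (159 in the posterior pool, 151 in the anterior pool), WNT1 (108 posteriorly, 98.9 anteriorly) and RYK (156 posteriorly, 153 anteriorly) also passed in the anterior channel only. PAX6 and PAX3 were likewise below the limit posteriorly, and no probe was paired with EN2 or OTX2.

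Ventral midbrain genes had a median of 0.07 over 6 members, none past 1.5-fold, among them SHH at 1108 in the posterior pool and 1082 in the anterior pool (0.03), NKX2-2 (-0.13) and SIM1 (0.43). Of the retinoic acid genes 6 were measured, with a median of -0.04 and none past 1.5-fold, from the receptor RARA (-0.41) to the retinol dehydrogenase RDH10 (0.24). For both lists, the shares past 1.5-fold over all genes with a symbol were 21.2% anteriorly and 0.616% posteriorly. ALDH1A2, the synthetic enzyme with a ratio of -2.22 at HH35, passed in the anterior channel only, 1.27-fold higher there by the floored ratio (100.3 in the posterior pool, 169 in the anterior pool). CYP26C1, which breaks retinoic acid down, stood at -0.08, against 0.77 at HH35.

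Nuclear receptors other than NR2F2 were less far out. RORA, an orphan receptor, had 432 in the posterior pool and 796 in the anterior pool (-0.88), RXRG was at 0.00 and the thyroid hormone receptor THRA at 0.21. In the thyroid hormone list the transporter SLC7A5 (-1.12) and the corepressor NCOR1 (-1.06) were past 2-fold anteriorly. The deiodinases lay on opposite sides: DIO3, which inactivates the hormone, had 189.5 in the posterior pool and 135 in the anterior pool (0.49) and DIO2, which activates it, 205 in the posterior pool and 326 in the anterior pool (-0.67). DIO3 had stood at 1.57 at HH35.

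In the FGF list all 5 measured members lay below 0, as did 65% of all genes with a symbol, and the list's median was -0.80. FGF13, an intracellular FGF that binds microtubules and sodium channels, had 1435 in the posterior pool and 3386 in the anterior pool (-1.24), and the receptors FGFR3 and FGFR2 stood at -0.89 and -0.73, whereas FGFR1, bright in both pools, was at -0.09. FGF13 had 3 measured probes, and beside the brightest the second stood at -0.94 and the remaining one at 0.00. Wnt genes split. LEF1, a transcription factor of the pathway (-0.93), CTNNB1, beta-catenin (-0.84), and DVL1, a dishevelled gene (-0.79), were on the anterior side, and the ligands WNT4 (0.42) and WNT5B (0.43) and the antagonist DKK2 (0.43) on the posterior side, around a list median of 0.07. WNT3, the tectal ligand read by RYK, had 735 in the posterior pool and 710.1 in the anterior pool (0.05). Among BMP and TGF-beta genes, whose median was -0.46, the ligand TGFB2 was at -1.02, TGFB3 and the target ID2 both at -0.82, and MSX2, a BMP-induced homeobox gene, at 0.53. The Notch list had 4 measured members and a median of 0.18, from NOTCH1 (-0.14) to HES6, which promotes neuronal differentiation (0.34).

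Progenitor genes lay on both sides, 2 above 0 and 6 below, where 65% of all genes with a symbol lay below 0. MSI1, a translational regulator of neural progenitors that binds RNA, had 693 in the posterior pool and 449 in the anterior pool (0.63) and 0.69 at HH35. SLC1A3, the glutamate transporter of radial glia, had 1163 in the posterior pool and 2167 in the anterior pool (-0.90), and the intermediate filament gene NES stood at -0.62, against 0.63 at HH35. SOX9 was at -0.44, SOX1 at -0.28 and SOX3 at 0.07. Among proneural genes, NEUROD4 had 210.5 in the posterior pool and 141 in the anterior pool (0.58), on the opposite side from EBF3 and from ELAVL4, a neuronal RNA-binding protein (-0.67). Cell cycle genes had a median of -0.22, close to that of genes with a symbol, with none of 16 past 2-fold, from the helicase subunit MCM4 (-0.59) to the proliferation marker MKI67 (0.23). Of all genes with a symbol, 4.48% were past 2-fold anteriorly and 0.0849% posteriorly.

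Astroglial and radial glial genes had a median of -0.65 over 6 members. GLUL, glutamine synthetase, had 1228 in the posterior pool and 2768 in the anterior pool (-1.17) and SPARC 759 in the posterior pool and 1543 in the anterior pool (-1.02), whereas the gap junction gene GJA1 was at 0.32 and the water channel AQP4 at -0.17. Of the oligodendrocyte lineage 4 genes were measured, with the precursor marker PDGFRA at -0.68, SOX8 at -0.64 and MBP, a myelin protein, at 0.36 with 367 in the posterior pool and 287 in the anterior pool.

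Inhibitory transmission genes included GAD1, the enzyme that makes GABA, at -0.93. The receptor subunit GABRG1, bright in both pools, stood at 0.03, and the list's median was -0.39 over 8 genes. Of 5 glutamatergic genes none was past 2-fold, from the metabotropic receptor GRM3 (-0.66) to the AMPA receptor subunit GRIA2 (0.08). Over all genes with a symbol, 4.48% were past 2-fold anteriorly and 0.0849% posteriorly, and 65% lay below 0. With shares this low, a count of none in so short a list does not set it apart. Ion channels had a median of -0.32 with 16 of 17 below 0, led by the sodium channel SCN2A (-1.05) and the potassium channel genes KCNAB1 (-0.97) and KCND2 (-0.95). Cadherins and protocadherins had a median of -0.62 with 16 of 18 below 0 and none past 2-fold, from PCDH11X (-0.95) to PCDH1 (0.43).

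Neuropeptide genes lay on both sides in equal number, 6 and 6, around a median of 0.01, where 65% of all genes with a symbol lay below 0. SST1, a somatostatin gene, had 2572 in the posterior pool and 5101 in the anterior pool (-0.99), the synaptic organiser CBLN2 2392 in the posterior pool and 4429 in the anterior pool (-0.89) and PNOC, the nociceptin precursor, 225 in the posterior pool and 403 in the anterior pool (-0.84). On the posterior side, GRP, the gastrin-releasing peptide, had 564 in the posterior pool and 409 in the anterior pool (0.46), CCK, cholecystokinin, stood at 0.37 and ADCYAP1, the precursor of PACAP, at 0.36. The HH35 ratios were 2.49 for GRP, 1.09 for PNOC and 0.88 for ADCYAP1.

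Lists of basic cell functions differed among themselves. For comparison, 65% of all genes with a symbol lay below 0, and 4.48% were past 2-fold anteriorly and 0.0849% posteriorly. Prefoldin and CCT chaperonin genes, which fold tubulin and actin, had a median of -0.87 with 8 of 9 below 0: CCT4, CCT7 and CCT8 lay between -0.94 and -0.92, and PFDN1 was the exception. Heat shock chaperones had -0.77, led by HSP90B1 of the endoplasmic reticulum at 979.6 in the posterior pool and 2454 in the anterior pool (-1.33), with the small heat shock protein HSPB1 at 0.28. Proteasome genes had -0.53 with 24 of 25 below 0 and none past 2-fold. The respiratory chain stood at -0.39, where ATP5B, the beta subunit of ATP synthase, had 2112 in the posterior pool and 5342 in the anterior pool (-1.34) and was alone among 25 in passing 2-fold. Splicing genes stood at -0.34 with 5 of 26 past 2-fold anteriorly, led by HNRNPA2B1 (-1.30) and HNRNPAB (-1.29), and 1 posteriorly, SNRNP40. Chromatin regulators stood at -0.27, with the remodelling ATPase SMARCA4 at -1.18 and RBBP4 at -1.05. The mitochondrial ribosome (-0.18, 30 genes) was at the median of genes with a symbol and the cytoplasmic ribosome (-0.11, 37 genes) above them, with none of either past 2-fold. Histone genes had a median of -0.44 over 4 genes. Extracellular matrix genes had a median of -0.06, with 8 of 16 on each side and the brain proteoglycan NCAN at 1963 in the posterior pool and 4159 in the anterior pool (-1.08).

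Markers of other cell types were measured beside these. In the erythroid list 7 of 16 genes were measured, with 4 on the anterior side, a median of -0.81 and a summed signal of 11165 in the posterior pool and 22572 in the anterior pool. Of all genes with a symbol, 65% lay on the anterior side. HBBA had 3865 in the posterior pool and 12351 in the anterior pool and HBA1, an alpha globin, 1909.6 in the posterior pool and 4810.1 in the anterior pool (-1.33), whereas HBZ and HBE1, embryonic-type globin genes, stood at 0.38 and 0.43. At HH35 HBBA was at 0.03 and HBA1 at 0.01. The part of blood in the other ratios was not tested, and leaving out the erythroid genes gave 20 posterior and 444 anterior features past 2-fold. Endothelial genes had a median of -0.24 (6 of 16 measured), meningeal and fibroblast genes 0.10 (7 of 18), microglial and leukocyte genes 0.11 (5 of 15), muscle and cartilage genes 0.07 (7 of 13) and retina and lens genes 0.15 (4 of 18), none of them with a member past 2-fold. Over all genes with a symbol, the shares past 2-fold were 4.48% anteriorly and 0.0849% posteriorly. The summed signal of endothelial genes was 3168 in the posterior pool and 3661 in the anterior pool, that of meningeal genes 12172 in the posterior pool and 11326 in the anterior pool, and that of microglial genes 23617 in the posterior pool and 22973 in the anterior pool. Markers of tissue next to the tectum were anteriorly higher for the diencephalon and pretectum list (-0.46, 7 of 19 measured, EMX2 at 845 in the posterior pool and 1751 in the anterior pool) and split for the isthmic, cerebellar and hindbrain list (0.07, 8 of 20), where HOXB3 was at 0.54. Their summed signals were 4491 in the posterior pool and 6837 in the anterior pool for the diencephalon list, and 3740 in the posterior pool and 4445 in the anterior pool for the isthmic one. The part of these tissues in the ratios was not tested. Of the 46 list medians, 27 kept their side of 0 under every alternative tried, and the 19 that did not include those of the Wnt, Notch, BMP and TGF-beta, neuropeptide, retinoic acid, extracellular matrix, cell cycle, ribosomal, organiser, endothelial, meningeal and microglial lists.

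Set beside the array of the same axis at HH35, on which 13522 of the measured features were also measured, the ratios correlated with Pearson's r of 0.50 across features, which share the array design and dye order. Of the anterior features past 2-fold at HH37, 445 were measured at HH35, and 80.0% of these were below 0 there, against 40.3% of all features on both arrays, although only 11 were past 2-fold there. Among them, MAP1B, EPHA3, NEFM, PPP3CA and ELMOD1 had a symbol. LOC419390 was the single feature past 2-fold posteriorly at both stages. Of the 10 posterior features measured at HH35, 6 were above 0 there, with a median of 0.01. Among all features on both arrays, 59.7% were above 0 at HH35, with a median of 0.10. The 5 posterior genes with the largest smaller ratio of both stages were LOC419390, PFDN1, MSI1, TMEM104 (0.51 at HH37, 0.58 at HH35) and EPGN, an epidermal growth factor relative (0.51 and 0.51).

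Genes with a symbol stood further towards the anterior pool at HH37 than at HH35, by a median of -0.21 on the log2 scale, and 45 of 46 list medians were lower at HH37 than at HH35. Of 4556 such genes, 15 had a ratio at least 2-fold higher at HH37 and 152 one at least 2-fold lower. GRP stood -2.03 from its HH35 ratio, PNOC -1.93 and STMN3 -1.95. In the other direction TAC1, the tachykinin precursor, stood 1.32 above its HH35 ratio, with 687 in the posterior pool and 592 in the anterior pool at HH37 and a ratio of -1.10 at HH35. SH3GLB1, a membrane-bending protein, differed by 1.40 and C7orf73 by 1.24. PHC1 differed by 1.37, but its HH37 ratio was -0.43 by pixel medians and -0.69 in the authors' deposited value table, both below its HH35 ratio of -0.17. With 1 array per stage these differences were not tested.

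**Figure D4:**
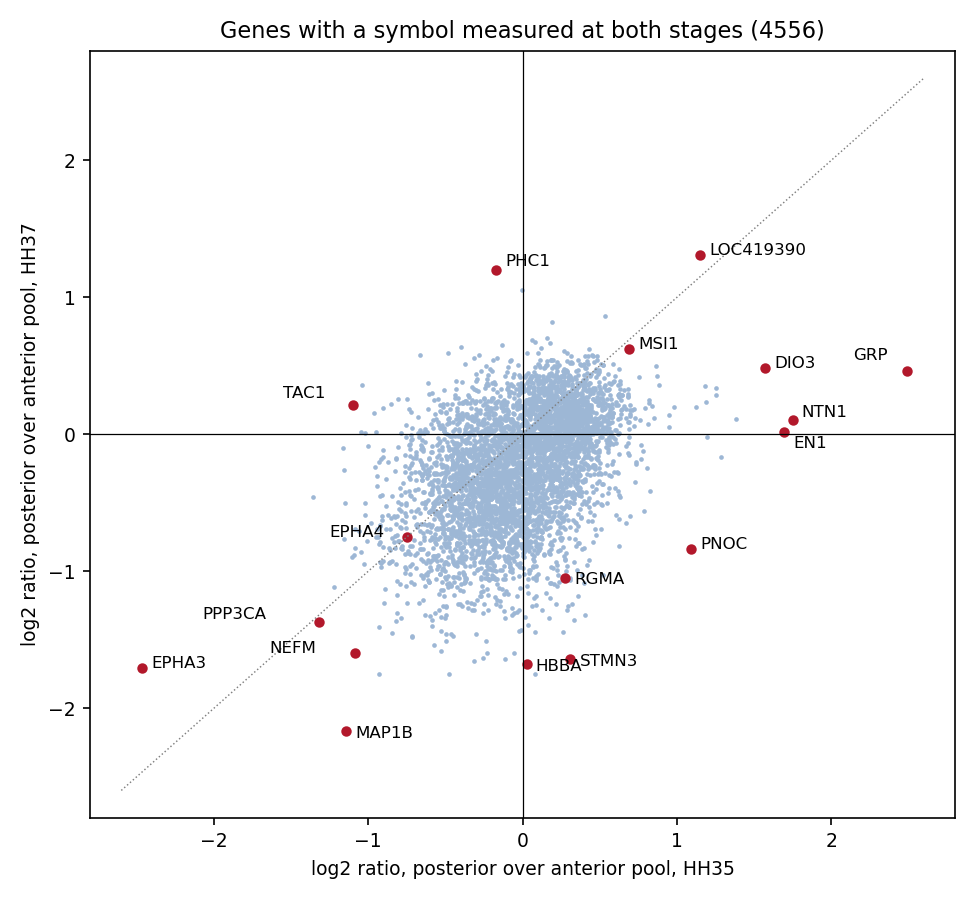
Log2 ratio of the posterior over the anterior pool at HH37 (vertical axis) and at HH35 (horizontal axis) for the 4556 genes with a symbol measured at both stages, with equal ratios on the dotted line. EPHA3, MAP1B, NEFM and PPP3CA lie low at both stages, LOC419390 lies high at both, and EN1, NTN1, DIO3 and GRP lie far right of the vertical line but between 0 and 0.5 at HH37.

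The HH37 ratios also ran with those of a different axis. Across 14425 features measured on both, they correlated with Cy5 over Cy3 of the mediolateral HH35 array with r of 0.71. This was higher than with the same axis at HH35. Across 12534 features, r was 0.08 with Cy5 over Cy3 of the mediolateral HH30 array. No RNA is shared between these arrays, as the labels give them, but the dyes and the array design are. Of 443 anterior features past 2-fold, 97.3% were below 0 on the mediolateral HH35 array, against 45.6% of all, with a median of -0.38. NR2F2 stood at -0.91 and HBBA at -0.87 there. Subtracting the mean of both mediolateral arrays left 42 posterior and 293 anterior features past 2-fold, and 211 of the 446 anterior ones were among those 293.

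Ratios differed across the slide. Left of the middle of its spot columns the measured features had a median of -0.06, with 10 posterior and 335 anterior ones past 2-fold among 8467. Right of it the median was 0.13, with 10 posterior and 111 anterior ones among 6433. For genes with a symbol the medians were -0.27 on the left and -0.04 on the right. The other arrays showed the same sign of step over the same features, with medians of -0.07 on the left and 0.17 on the right for mediolateral HH35 and of 0.07 and 0.14 for anteroposterior HH35, while repeated control spots differed by 0.08. Whether probe content or position sets the step was not tested. With each side centred on its own median, 21 posterior and 445 anterior features passed 2-fold, so the anterior excess was of the same size in that setting. Its members differed in part: 349 of the 446 anterior features and 17 of the 20 posterior ones stayed past 2-fold. Without that centring, the anterior excess was present on each side.

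**Figure D5:**
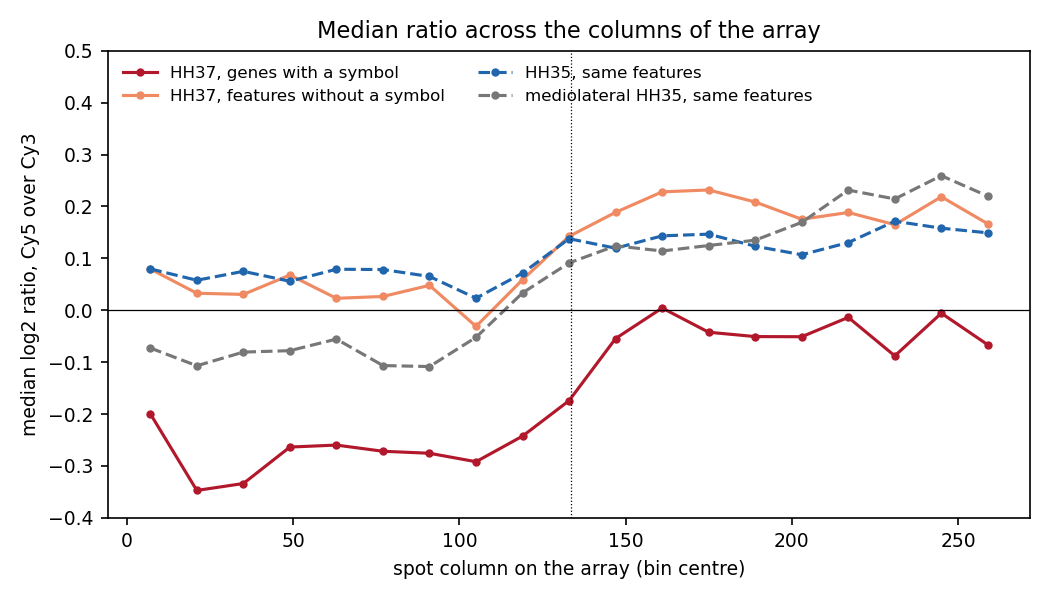
Median log2 ratio (vertical axis) in bins of spot columns (horizontal axis, column number) for measured features at HH37 with and without a symbol and for the same features at HH35 and on the mediolateral HH35 array. Genes with a symbol lie near -0.27 left of the dotted line at the middle of the array and near -0.04 right of it, below the features without a symbol in every bin.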

How the data were processed

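RNA of 60 pooled tectal pieces per channel was hybridised to each of 4 two-colour arrays, and the number of arrays, 1 per comparison, limits the precision. The deposited spot tables hold linear, unnormalised intensity in both channels. They also give a score of signal over noise, and for each spot what percent of its pixels was saturated, per the file headers. The submitters' processing notes name Agilent Feature Extraction, while the spot tables have the columns of GenePix, per the file headers. A second deposited table holds the authors' ratio for each probe, also written as a signed fold change, and the deposited value table is its log2, equal to anterior over posterior. Its normalisation is not given in the sources used here.

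Mean foreground and median background were corrected with normexp at an offset of 50 and normalised by loess within the array in limma 3.58.1 (R 4.3.3), using a span of 0.3 and giving control spots no weight. Counts and medians were made in Python 3.11.15 with pandas 2.3.3. The normalisation was checked by putting known changes into bright probes of the HH37 array. That check did not cover dim probes near the limit or the counts. Spots marked as not found (3479 gene probes) and probes under a signal-to-noise of 3 in either channel were left out, and 9 measured probes with saturated pixels were kept. Signals in the text are normalised values in linear units.

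A symbol was paired with 10056 probes of 8681 genes through the files' annotation and RefSeq gene names, and 31978 probes had none or, in 78 cases, names that disagreed. EN1 and EFNA6 were named from the probe description. Genes named in the text are the 10 highest and 10 lowest, the 5 on each side with the largest ratio kept at both stages, the 4 with the largest difference between the stages in each direction, Eph and ephrin genes, a short fixed list, and the 3 highest and 3 lowest of each of 49 gene lists. A few others complete a list, and some genes that the rule selects are not reported here. The comparison, lists and alternatives were chosen with earlier results of these data known. With 1 array per group no test was made, and 21 alternatives were tried, 6 of them chosen after seeing the data.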

Additional observations from a re-analysis of the deposited data

Results flagged for a closer look

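Of 4556 genes with a symbol measured at both stages, 6 were past 1.5-fold on opposite sides, all of them lower at HH37. They were NES, PNOC, SOX8, SLIT1, SARS1 and LOC422150, and each had a ratio past 1.5-fold to the anterior side at HH37 and past 1.5-fold to the posterior side at HH35. Among all genes with a symbol at HH37, 21.2% were past 1.5-fold anteriorly and 0.616% posteriorly, so few could qualify the other way. The median difference of genes with a symbol between the stages was -0.21. The intermediate filament gene NES stood at -0.62 at HH37, against 0.63 at HH35. PNOC stood at -0.84, against 1.09, and SOX8 at -0.64, against 0.67. SLIT1, SARS1 and LOC422150 are outside the rule for named genes and are given after their values were seen. SLIT1, a ligand of Robo receptors, stood at -0.81, against 0.62 at HH35, SARS1 at -0.60, against 0.69, and LOC422150 at -0.59, against 0.61. Each value comes from 1 array, and the difference between the stages was not tested.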

How the results depend on the processing

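No paired analysis was possible because each comparison is 1 array, and for the same reason no array could be left out. Under 21 alternatives, the anterior side held more features past the fold threshold than the posterior side in all of them, and none of the 15 list medians past 1.5-fold changed side. The fold threshold was 2-fold, except in the alternative that set it to 1.5-fold. Counts below give posterior features first and anterior features second. They were 81 and 384 with plain background subtraction, 9 and 1793 with centring on the median in place of loess, 23 and 255 with loess on measured probes, 29 and 208 with quantile normalisation, 253 and 286 in the deposited value table, 42 and 293 with the mediolateral mean subtracted, 13 and 426 at a signal-to-noise above 6, and 328 and 2164 at 1.5-fold. The anterior share was 82.6%, 99.5%, 91.7%, 87.8%, 53.1% and 87.5% under the first 6 of these and 86.8% at 1.5-fold. Among alternatives chosen after seeing the data, probes left of the middle of the array gave 10 and 338, those right of it 10 and 113 (91.9%), and centring on genes with a symbol gave 41 and 163 (79.9%). Medians of all measured features were -0.24 with median centring, 0.13 with quantile normalisation, 0.14 in the value table, 0.13 right of the middle and 0.21 when centred on genes with a symbol. Genes with a symbol stood -0.30 from the others in the median, -0.18 without a filter and -0.12 with the mediolateral mean subtracted. With that mean subtracted, 75.3% of the anterior features were below 0 at HH35. PHC1 stood at -0.69 in the value table and -0.43 by pixel medians, and SNRNP40 at -0.32 and -0.12. Of 115 named genes past 1.5-fold, these were the only ones to change side under any alternative. The cause of these shifts was not tested. Signal over background in the posterior channel limited which genes could be measured.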

Other observations

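The authors' deposited table placed MAP1B at a ratio of anterior over posterior of 3.09, EPHA3 at 3.39, NR2F2 at 2.76 and HBBA at 2.70, and on the other side LOC419390 at 0.359. In the same table PFDN1 stood at 0.273, DYDC2 at 0.314 and RPL3L at 0.322, all 3 further to the posterior side than in the ratios computed here from the spots.

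Spots left out as not found included 2 neighbouring ones with computed ratios of 2.19 and 2.58, where the posterior channel had pixel means of 5585 and 5295 and pixel medians of 69 and 93.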
